A study of Mus musculus with 354 samples.

Results

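The 10 genes described here belong to bone formation and mineralization: Runx2, Sp7, Bglap, Bglap2, Mgp, Sparc, Postn, Alpl, Enpp1 and Ank. They were 10 of the 55367 genes with a row in the count tables, and 39201 of those genes had at least 1 count. The genes were chosen by name with earlier results from these cells in view, and Ank, Bglap and Bglap2 in particular were selected on their counts, so the values of those 3 genes are given as a description. The cells were also divided by their own Spp1 level, at 100 CPM (CPM is the count of a gene as a share of all counts of the cell, on the usual scale), in order to see how many genes of a bone programme were present in the cells that hold Spp1, which encodes the secreted phosphoprotein osteopontin.

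The study measured mRNA by SMART-Seq in single GFP+ cells sorted from the organ of Corti of P3 mice. CA-ERBB2 pups had 3 transgenes, TetON-CAERBB2 together with Fgfr3-iCre and the ROSA-floxed-rtTA/GFP reporter, and so could express a form of ERBB2 that signals without a ligand. Control pups came from the same litters and lacked TetON-CAERBB2, so that both genotypes carried the Cre (Fgfr3-iCre) and the reporter (ROSA-floxed-rtTA/GFP). The protocol gave tamoxifen at 75 mg/kg at P0 and P1 and doxycycline at 100 mg/kg at P2, and the label for doxycycline was attached to the CA-ERBB2 samples only. GFP marks cells in which the Fgfr3-driven Cre was active, which need not all be supporting cells, and each tube pooled several cochleae. There were 177 cells of each genotype, on 3 plates of 59 cells, and the plate was taken as the replicate.

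Bone is built by osteoblasts, which depend on the transcription factors Runx2 and Sp7 (osterix), secrete type I collagen and non-collagenous proteins such as osteocalcin, and display tissue-nonspecific alkaline phosphatase. Mineral growth is set by the balance of phosphate and pyrophosphate outside the cell. ENPP1 makes pyrophosphate from nucleotides, ANK takes part in its release, and alkaline phosphatase (Alpl) breaks it down, so the first 2 oppose mineral growth and the third favours it.

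Total counts lay between 1443 and 5178221 per cell with a median of 2866362, and 35 cells held fewer than 100000 counts. These shallow cells were unevenly placed, with 23 on Control plate 2, 10 on Control plate 3 and 1 each on CA-ERBB2 plates 2 and 3. They stayed in the shares of cells given below, except after thinning or a filter on cells. Wells A12 to D12 stood apart: the 24 libraries from these wells had a median of 15538 detected genes, against 3244 in the other 330 cells. Of these 24 libraries, 10 were CA-ERBB2 cells with Spp1 at 100 CPM or more and 5 were Control cells with Spp1 at that level. Values without these wells are given where they moved a result. All 10 markers of supporting cells were detected in both genotypes, and so were all 11 markers of mesenchyme and fibroblasts, whose summed level was 6975 CPM over all CA-ERBB2 cells and 7523 CPM over all Control cells. The supporting-cell markers summed to 2386 CPM and 2486 CPM, so the sorted cells did not carry markers of supporting cells alone.

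Osteocalcin is encoded in the mouse by neighbouring genes of nearly the same sequence, which bears on how far their counts can be told apart. Bglap (GRCm38 chr3:88383501-88384464, minus strand) and Bglap2 (chr3:88377736-88378699, minus strand) start 5765 bases from each other. Their annotated coding sequences, without the stop codon, are each 285 bases long and differ at 4 positions (98.6% identity), shown in capitals in the lines below.
Bglap: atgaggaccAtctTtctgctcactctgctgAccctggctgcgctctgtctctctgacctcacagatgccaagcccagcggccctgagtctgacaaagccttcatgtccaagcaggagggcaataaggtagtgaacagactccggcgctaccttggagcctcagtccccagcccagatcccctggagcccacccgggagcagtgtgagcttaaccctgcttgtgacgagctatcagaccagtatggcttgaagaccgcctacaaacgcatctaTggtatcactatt
Bglap2: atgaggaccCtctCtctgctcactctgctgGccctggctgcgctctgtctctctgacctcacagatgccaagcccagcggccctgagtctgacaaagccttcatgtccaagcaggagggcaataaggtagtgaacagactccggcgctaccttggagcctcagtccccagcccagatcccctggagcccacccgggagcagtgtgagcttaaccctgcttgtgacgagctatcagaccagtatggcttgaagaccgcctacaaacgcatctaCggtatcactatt
Of the 391 stretches of 50 bases in the Bglap transcript of Gencode M21, 292 (74.7%) also occur in the Bglap2 transcript, and 192 of 341 stretches of 100 bases (56.3%) do. A read from a shared stretch cannot be assigned to one gene. The counting settings listed by the study name no option for reads that fit more than 1 place. Such reads may be missing from both genes, so the levels of Bglap and Bglap2 and the division between them were uncertain. Each gene is given as counted and then both together, since the genes may not be separate signals. Bglap3, the third gene of the cluster, shares 80 of the 391 stretches of 50 bases and was detected in 8 of the 72 CA-ERBB2 cells with Spp1, at a pooled 0.696 CPM.

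The primers that the study designed for these transcripts show the same likeness. The forward primer is one and the same for Bglap and Bglap2, and it is found in all 3 transcripts of the cluster. The reverse primer of Bglap is found in the Bglap transcript and not in that of Bglap2, while the reverse primer of Bglap2 is found in both.
Forward primer of both genes: gcaataaggtagtgaacagactcc
Reverse primer of Bglap: ccatagatgcgtttgtaggcgg
Reverse primer of Bglap2: gcgtttgtaggcggtcttcaag

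Runx2 is known to bind the osteocalcin promoter at the core TGTGGT, read on either strand. The 250 bases before the Bglap start (GRCm38.p6 chr3:88384467-88384716, minus strand, RefSeq) are printed below, with the match to TGTGGT or its reverse complement in capitals.
Bglap promoter: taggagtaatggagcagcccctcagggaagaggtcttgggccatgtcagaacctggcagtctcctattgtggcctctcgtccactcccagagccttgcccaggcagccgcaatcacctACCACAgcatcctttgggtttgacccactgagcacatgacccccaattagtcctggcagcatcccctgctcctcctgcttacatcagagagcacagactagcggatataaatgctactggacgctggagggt
A promoter was given by RefSeq for 7 of the 10 genes, and 3 of the 7 (Bglap, Enpp1 and Runx2) held TGTGGT within 250 bases before a start. By window, with 2 windows each for Alpl and Postn, these were 3 of 9, and 14.1% of all 32851 promoter windows held it. TGANTCA, the AP-1 motif, was in none of the 9 windows and in 6.75% of all, and the window of Ank held neither motif. A match is given as a description of the letters, and binding was not measured.

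Between genotypes, counts were summed over the cells of a plate and normalized for library size (normalized CPM). In such sums, fewer cells holding a transcript and less of it per cell cannot be told apart. All 10 genes passed the filter on low counts. In edgeR's quasi-likelihood test 0 of the 10 were called at an adjusted p under 0.05 and a 2-fold change, and 0.00467% of the 21416 genes tested were called. At an unadjusted p under 0.05 the test listed 5 of the 10 (Ank, Enpp1, Bglap, Bglap2 and Postn) and 1106 of all genes. DESeq2 on the same sums called 4 of the 10 (Ank, Enpp1, Bglap and Bglap2) and 235 genes in all (1.1%). Ank, Bglap and Bglap2 were selected on counts of these cells, so these calls describe them and the number of calls among the 10 is not set against the share of all genes.

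Ank and Enpp1, the genes of pyrophosphate supply, were higher in CA-ERBB2 plates. Ank reached 118, 688 and 1205 normalized CPM on CA-ERBB2 plates 1 to 3, and 26.8, 24.9 and 51.9 on Control plates 1 to 3. Every CA-ERBB2 plate lay above every Control plate, and CA-ERBB2 plate 1 lay far below the other two CA-ERBB2 plates. The fitted log2 difference was 4.28 (SE 0.83). Enpp1 stood at 70.1, 154 and 215 on the CA-ERBB2 plates and at 40.2, 22.3 and 20.5 on the Control plates, again without overlap. Its log2 difference was 2.40 (SE 0.60), with an edgeR adjusted p of 0.774. Alpl, the enzyme that removes pyrophosphate, gave 42.0, 39.4 and 147 normalized CPM in CA-ERBB2 and 33.5, 151 and 165 in Control plates. The plates of the genotypes overlapped for Alpl, and its log2 difference was -0.61 (SE 0.73, edgeR adjusted p of 0.957).

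The osteocalcin genes showed the largest fitted differences and the widest spread. Bglap was at 6.27, 156 and 283 normalized CPM on CA-ERBB2 plates and at 0.336, 8.04 and 6.21 on Control plates. CA-ERBB2 plate 1 fell within the Control range for Bglap, and the log2 difference was 4.93 (SE 1.38). Bglap2 was at 5.36, 72.3 and 136 on CA-ERBB2 plates and at 0.294, 4.36 and 0.463 on Control plates, which did not overlap, with a log2 difference of 5.38 (SE 1.40). Added together, Bglap and Bglap2 were at 11.6, 228 and 419 normalized CPM on CA-ERBB2 plates and at 0.631, 12.4 and 6.67 on Control plates. The plates of the genotypes thus overlapped for osteocalcin as a whole, with CA-ERBB2 plate 1 below Control plate 2. Without wells A12 to D12 these log2 differences were 5.97 for Bglap and 8.23 for Bglap2, both toward CA-ERBB2.

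In the plate sums the transcription factors overlapped between genotypes. Runx2, which commits cells to the osteoblast lineage, was at 60.9, 97.1 and 89.1 normalized CPM in CA-ERBB2 plates and at 53.7, 75.1 and 134 in Control plates. The means, 82.4 ± 19.0 and 87.8 ± 41.8 (SD, n = 3 plates), differed by less than the spread between plates. Sp7, which acts after Runx2, was at 14.6, 41.6 and 151 in CA-ERBB2 and at 18.2, 8.12 and 51.5 in Control plates. The Sp7 plates overlapped, and its log2 difference of 1.41 (SE 0.92, edgeR adjusted p of 0.918) became 0.13 without CA-ERBB2 plate 3 and 2.42 without Control plate 3.

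Among matrix genes, Sparc (osteonectin, a collagen-binding glycoprotein of many connective tissues) was the most abundant of the 10, at 3525 ± 588 normalized CPM in CA-ERBB2 and 4175 ± 525 in Control plates (SD, n = 3 plates). Mgp, the vitamin K-dependent matrix Gla protein that inhibits calcification, was at 372, 1929 and 1771 in CA-ERBB2 and at 593, 1592 and 804 in Control plates, which overlapped. Postn (periostin, a matrix protein of periosteum and other connective tissue) was at 129, 76.1 and 70.6 in CA-ERBB2 and at 170, 158 and 315 in Control plates. Postn alone among the 10 had every CA-ERBB2 plate below every Control plate, with a log2 difference of -1.22 (SE 0.51, edgeR adjusted p of 0.911). On Control plate 2 a single cell held 79.4% of the Postn counts of the cells with Spp1 below 100 CPM. The pooled level of those cells was 244 CPM with it and 52.9 CPM without it. The cells of that plate with Spp1 were at 19.8 CPM. Without that cell both classes of Control plate 2 lay below the lowest CA-ERBB2 plate, at 70.6 normalized CPM. The separation of the plates for Postn thus rested on 1 cell, and the fit was not repeated without it. In all, 3 of the 10 (Ank, Enpp1 and Bglap2) had every CA-ERBB2 plate above every Control plate, or 2 of 9 with Bglap and Bglap2 counted as 1 gene, and 1 of the 10 had every plate below. Over all genes tested the shares were 4.2% above and 4.88% below, and nothing is read from the first, since Ank and Bglap2 were selected on counts of these cells. Leaving out CA-ERBB2 plate 1 raised the number of the 10 without overlap, in either direction, from 4 to 7. With fewer plates any gene separates more easily. The share over all genes was not computed for this setting, so nothing is read from the rise.

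**Figure D1:**
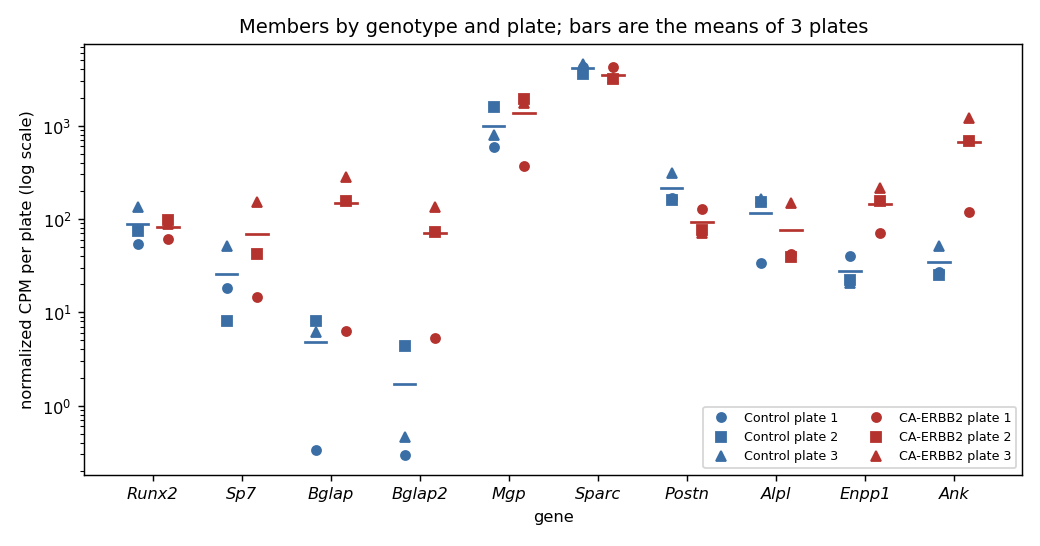
Normalized CPM on a log axis for the 10 genes, with Control plates in blue and CA-ERBB2 plates in red, 1 symbol per plate and a bar at the mean of 3 plates. Ank, Enpp1 and Bglap2 lie higher on every CA-ERBB2 plate than on any Control plate, Postn lies lower, and the other genes overlap. For Postn this rests on 1 cell of Control plate 2.

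Counted per cell, Ank, Enpp1, Bglap2, Sp7 and Mgp were at 100 CPM or more in a larger share of cells on every CA-ERBB2 plate than on any Control plate. The share of all genes that separate in this way was not computed, and Ank and Bglap2 were selected on counts of these cells. Nothing is therefore read from the number of such genes. These shares include the cells with fewer than 100000 counts, 23 on Control plate 2 and 10 on Control plate 3. A two-sided exact permutation test of 3 plates against 3 cannot give a p below 0.1. Ank was at 100 CPM or more in 16.9%, 32.2% and 39.0% of the cells of CA-ERBB2 plates 1 to 3, and in 13.6%, 5.08% and 13.6% of the cells of the Control plates, without overlap. Enpp1 was at that level in 18.1% ± 0.979 of CA-ERBB2 and 9.60% ± 4.89 of Control cells (SD, n = 3 plates, exact permutation p of 0.1). Bglap2 was at that level in 10.2% ± 6.78 of CA-ERBB2 and 0.565% ± 0.979 of Control cells, and Bglap in 12.4% ± 11.03 and 1.69% ± 1.69 (SD, n = 3 plates). Sp7 was at that level in 6.78%, 8.47% and 10.2% of cells on the CA-ERBB2 plates and in 3.39%, 1.69% and 1.69% on the Control plates, which did not overlap (exact permutation p of 0.1). Mgp also had no overlap at this level, with 39.0% ± 1.69 against 24.9% ± 8.53 of cells (SD, n = 3 plates, exact permutation p of 0.1). Runx2 was at 100 CPM or more in 13.0% ± 0.979 and 10.2% ± 1.69 of cells, and Alpl in 5.08% ± 3.39 and 10.7% ± 1.96, with exact permutation p of 0.2 for each gene, so that Alpl had the lower mean share in CA-ERBB2. Postn was at that level in 14.7% of the cells of both genotypes.

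Detection at 1 count or more depends on depth, so each cell was also thinned to 100000 counts. Ank was detected in 57.1% of CA-ERBB2 and 32.8% of Control cells as counted (means of 3 plates), and in 50.8% and 32.4% after thinning. Sp7 was detected in 22.0% and 11.3% of cells as counted and in 17.1% and 8.89% after thinning, without overlap between plates in both cases. Runx2 went from 32.2% and 20.3% of cells to 24.5% and 19.7%. Sparc was detected in 88.1% of CA-ERBB2 and 75.1% of Control cells as counted but in 85.1% and 87.8% after thinning, so its direction turned once the 35 shallow cells were left out. The median number of the 10 genes at 100 CPM or more in a cell was 2 on each CA-ERBB2 plate and 2, 1 and 1 on Control plates 1 to 3 (exact permutation p of 0.4).

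The division at 100 CPM of Spp1 placed 72 CA-ERBB2 cells (10, 31 and 31 on plates 1 to 3) and 33 Control cells (14, 10 and 9) in the class with Spp1. The highest cell below the division had 93.3 CPM and the lowest above it 102 CPM, and 12 cells lay between 50 and 100 CPM and 10 between 100 and 200 CPM. The classes of the genotypes were not alike in Spp1 itself, since its median was 76373 CPM in the CA-ERBB2 class and 639 CPM in the Control class. The CA-ERBB2 cells with Spp1 had a median of 3164 detected genes and the other CA-ERBB2 cells 6027. By plate these medians were 8788, 3110 and 2916 with Spp1 and 10313, 2941.5 and 1114 without, so the order differed between plates. Plate 1 supplied 49 of the 105 others and 10 of the 72 cells with Spp1. The classes were made from a value measured in the same cells, so the values below are a description without a test.

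Ank was far higher in CA-ERBB2 cells with Spp1 than in the others. Its pooled level was 1017 CPM in CA-ERBB2 cells with Spp1 and 39.2 CPM in the others, a 25.9-fold difference, and 95.2% of all its counts in CA-ERBB2 cells lay in the class with Spp1. By plate, the levels with Spp1 were 763, 863 and 1254 CPM and those without were 41.0, 57.4 and 10.04 CPM, so all 3 plates showed the difference. Without the cell with most Ank counts in each class of a plate, these levels were 212, 731 and 1082 CPM with Spp1 and 38.6, 16.1 and 3.16 CPM without, in the same order on each plate. Ank reached 100 CPM in 44 of the 72 cells with Spp1 (61.1%, exact 95% interval 48.9 to 72.4) and in 7.62% of the other 105 cells. In Control cells the pooled Ank level was 50.8 CPM with Spp1 and 33.4 CPM without, and plate 2 had the opposite order.

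Enpp1 followed Ank with a smaller difference, at a pooled 205 CPM with Spp1 and 49.0 CPM without (4.19-fold). Its levels with Spp1 were 317, 171 and 199 CPM on plates 1 to 3, and those without were 50.1, 45.9 and 48.8 CPM, so the difference was seen on every plate. A single cell held 71.8% of the Enpp1 counts with Spp1 on plate 1, where the level was 104 CPM without it, and 90.2% of those without Spp1 on plate 3, where the level was 5.08 CPM without it. Ank and Enpp1 were both at 100 CPM or more in 18 of the 72 cells with Spp1 and in 2 of the other 105 CA-ERBB2 cells. Alpl did not go with them on every plate. It was detected in 11 of the 72 cells with Spp1 (15.3%) and in 21 of the 105 others (20.0%), and it reached 100 CPM in 3 and 6 of these cells. Of the 21 others, 17 were on plate 1. On plates 1 to 3 Alpl was detected in 20.0%, 16.1% and 12.9% of cells with Spp1 and in 34.7%, 14.3% and 0% of the others. The order for detection thus differed between plates. Without wells A12 to D12, Alpl was detected in 4 of 62 cells with Spp1 (6.45%) and in 19 of 103 others (18.4%). The pooled Alpl level was 69.6 CPM with Spp1 and 54.4 CPM without, but 52.0% of the Alpl counts in cells with Spp1 came from 1 cell. On CA-ERBB2 plates 1 and 2 the Alpl level was lower with Spp1, at 6.73 against 64.9 CPM and 5.005 against 68.4 CPM, while on plate 3 it was 154 CPM with Spp1 and 0 counts were found in the 28 others.

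Osteocalcin was nearly confined to the class with Spp1 among CA-ERBB2 cells, which held 99.5% of the Bglap and 96.5% of the Bglap2 counts of that genotype. Bglap was at 220 CPM with Spp1 and 0.926 CPM without, and by plate at 51.6, 202 and 296 CPM with Spp1. A single cell held 83.7% of the Bglap counts with Spp1 on plate 1, and the level there was 9.77 CPM without it. Bglap2 was at 104 CPM with Spp1 and 2.86 CPM without, and all of the latter came from 1 cell. At least 1 of the genes was detected in 39 of the 72 cells with Spp1 (54.2%) and in 3 of the other 105, and Bglap and Bglap2 were detected together in 31 cells with Spp1. Control cells held far less, since osteocalcin was detected in 5 of the 33 cells with Spp1 and 5 of the 144 others, and the pooled Bglap level with Spp1 was 16.1 CPM.

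Of the transcription factors, Sp7 was higher with Spp1 and Runx2 was not. Runx2 was at 73.3 CPM with Spp1 and 73.8 CPM without among CA-ERBB2 cells, and on plates 1 to 3 at 43.7, 77.5 and 79.5 CPM against 87.5, 73.2 and 26.1 CPM. The order of the classes thus differed between plates. Runx2 was nevertheless detected in 32 of the 72 cells with Spp1 (44.4%) and 25 of the 105 others (23.8%). Sp7 was at 86.8 CPM with Spp1 and 17.2 CPM without, but 41.8% of its counts with Spp1 came from 1 cell of plate 3. On plates 1 to 3 Sp7 was at 29.2, 34.1 and 158 CPM with Spp1 and at 17.4, 30.1 and 0 CPM without. Without the cell with most Sp7 counts in each class of a plate, the levels were 6.54, 26.0 and 76.0 CPM with Spp1 and 9.72, 0 and 0 CPM without, so that plate 1 took the opposite order. It was detected in 28 of the 72 cells (38.9%) and 11 of the 105 others (10.5%).

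The matrix genes went different ways. Sparc was lower in CA-ERBB2 cells with Spp1 on each of the 3 plates, at 3113, 1963 and 1492 CPM against 6024, 3149 and 3624 CPM, although it was detected in 90.3% of cells with Spp1 and in 86.7% of the others. In Control cells the Sparc classes lay close together, at 4637 and 4906 CPM. Postn was at 129 CPM with Spp1 and 80.6 CPM without and was higher with Spp1 on all 3 plates, where the values without Spp1 rested on 19, 1 and 3 cells with a count. Mgp was at 1397 and 707 CPM, with a higher level with Spp1 on plate 2 only.

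Among the 10 genes, 5 (Ank, Bglap, Bglap2, Enpp1 and Sp7) were at least 2-fold higher in CA-ERBB2 cells with Spp1, or 4 of 9 with Bglap and Bglap2 counted as 1 gene. The share over all genes tested was 6.5%, and nothing is read from the difference, since Ank, Bglap and Bglap2 were selected on counts of these cells. A higher level with Spp1 on every plate was found for 6 of the 10, the same 5 and Postn, and for 11% of all genes. Only Sparc was at least 2-fold lower, against 28.3% of all genes. The median log2 ratio was 1.51 over the 10 genes and -0.42 over all genes tested. In Control cells 5 of the 10 (Bglap, Bglap2, Sp7, Runx2 and Alpl) were at least 2-fold higher with Spp1, against 12.1% of all genes. Sp7, Bglap and Bglap2 were thus in both sets, Ank and Enpp1 only in that of CA-ERBB2, and Runx2 and Alpl only in that of Control cells, and the difference between the genotypes in these ratios was not tested.

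**Figure D2:**
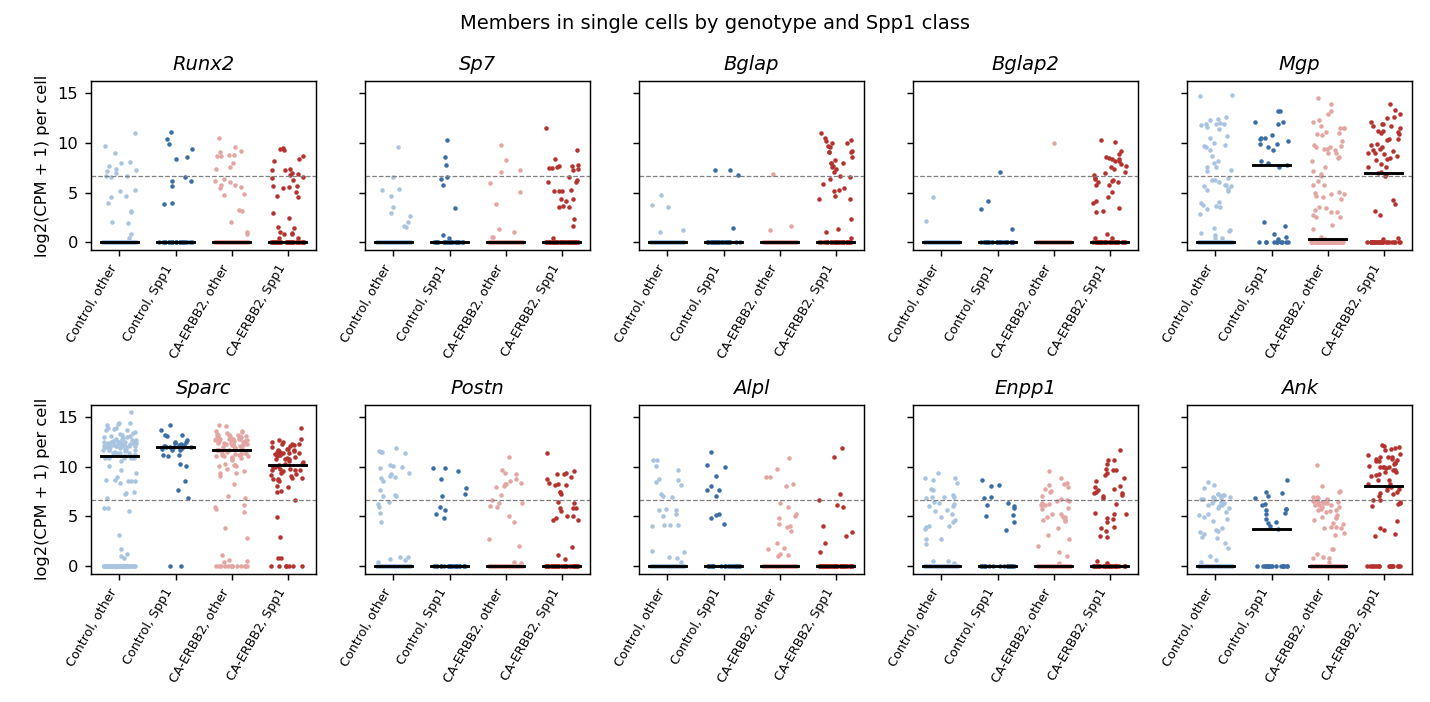
Level in every cell, as log2(CPM + 1), for the 10 genes in Control cells (blue) and CA-ERBB2 cells (red) without (pale) and with (dark) Spp1 at 100 CPM or more. Black bars are medians and the dashed line marks 100 CPM, and the median of Ank rises above that line in CA-ERBB2 cells with Spp1 alone.

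**Figure D3:**
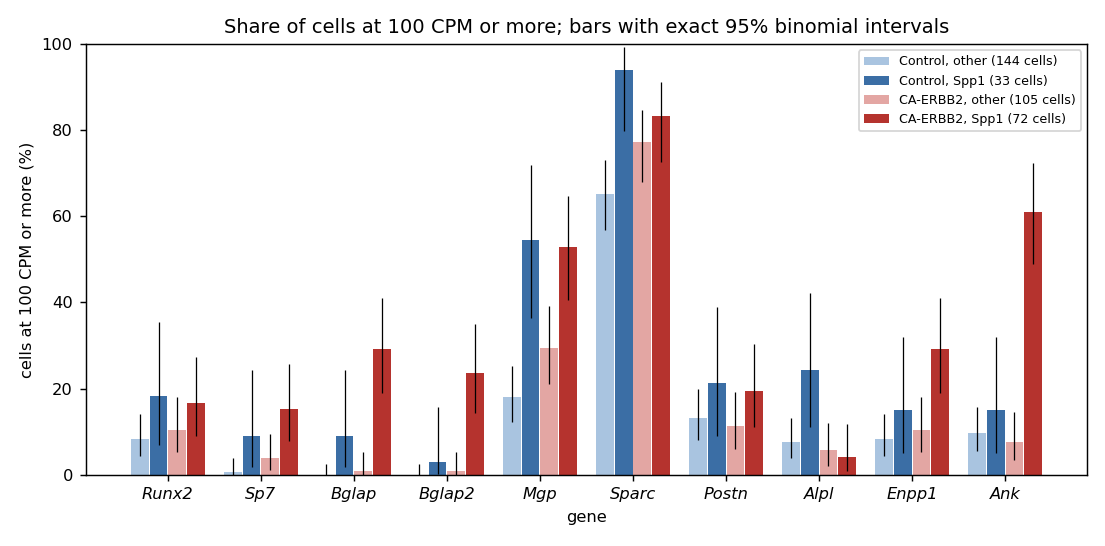
Share of cells at 100 CPM or more for each gene in the same 4 classes, as bars from 0 with exact 95% binomial intervals, which cover counting error only. The share for Ank is 61.1% in CA-ERBB2 cells with Spp1 and between 7.62% and 15.2% in the other classes, while Alpl is highest in Control cells with Spp1, at 24.2%.

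Within CA-ERBB2 cells the shares followed the amount of Spp1 for Ank and osteocalcin. Ank was at 100 CPM or more in 9.68% of the 62 cells with Spp1 below 1 CPM and 4.65% of the 43 cells between 1 and 100 CPM. It was at that level in 12 of the 20 cells between 10000 and 100000 CPM and in 28 (87.5%) of the 32 cells above 100000 CPM. The bins between 100 and 10000 CPM held only 14 and 6 cells, with 2 Ank cells each. Bglap was at 100 CPM or more in 0 of the 43, 14 and 6 cells of the bins between 1 and 10000 CPM of Spp1, in 30.0% of the 20 cells of the next bin and in 46.9% of the 32 cells above it. Enpp1 reached that level in 12.9% of the cells with the least Spp1 and 43.8% of those with the most. Alpl reached it in 0 of the 32 cells with the most Spp1, which allows a share of up to 9.38%, and in 4 of the 43 cells between 1 and 100 CPM. The median number of detected genes was 6678 in the cells with the least Spp1 and 3316 in those with the most. These bins were not divided by plate, and the plates differed widely, with medians of 10198, 2954 and 1853 detected genes on CA-ERBB2 plates 1 to 3.

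**Figure D4:**
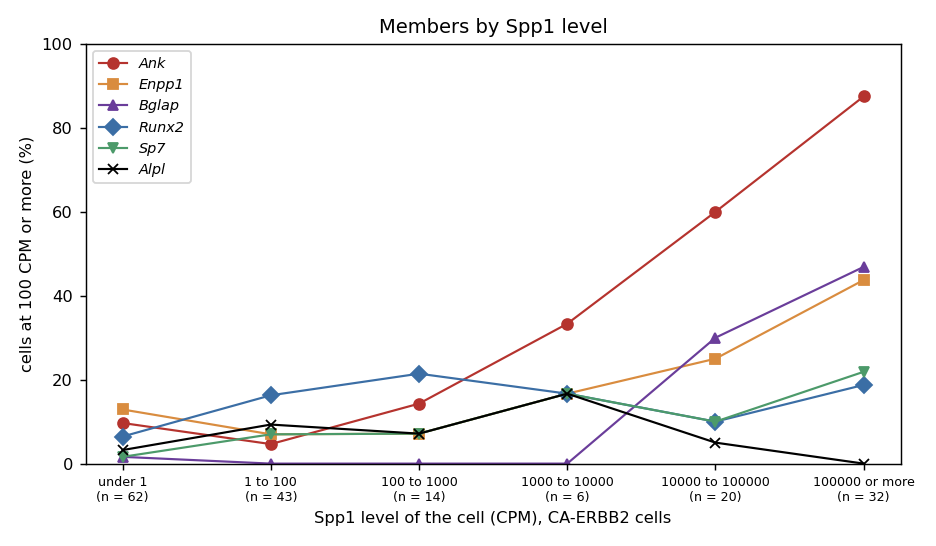
Share of CA-ERBB2 cells at 100 CPM or more for 6 of the genes, by the Spp1 level of the cell in CPM, with the number of cells in each bin below the axis. Ank, Enpp1 and Bglap are highest in the bin with the most Spp1, at 87.5%, 43.8% and 46.9%, where Alpl is at 0%, and the bins of 14 and 6 cells are thinly filled.

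How complete the programme was in a single cell was read from 5 genes that together mark osteoblasts: Runx2, Sp7, Alpl, the type I collagen chain Col1a1, and osteocalcin (Bglap or Bglap2). The set was chosen with the results known. All 5 were at 100 CPM or more in 0 of the 72 CA-ERBB2 cells with Spp1, which allows a share of up to 4.17%, and 33 of the 72 held none of the 5 at that level. None of the 5 was at that level in 88 of the other 105 CA-ERBB2 cells, in 17 of the 33 Control cells with Spp1 and in 119 of the 144 Control cells without. Of these 144 Control cells, 31 held fewer than 100000 counts. By mere detection, all 5 were found together in 7 of the 72 cells and 1 of the 105 others, and in 2 of 62 and 1 of 103 cells without wells A12 to D12. The 39 osteocalcin-positive cells with Spp1 had Col1a1 detected in 34, Runx2 in 24, Sp7 in 24 and Alpl in 8. Without wells A12 to D12, Alpl was detected in 2 of 30 such cells, Runx2 in 16, Sp7 in 15 and Col1a1 in 25. Ank was detected in 35 of the 39 and Enpp1 in 24, and Dmp1, an acidic matrix protein of late osteoblasts and osteocytes, in 33. Over all 72 cells with Spp1 the shares with a count were 76.4% for Ank, 70.8% for Dmp1, 66.7% for Col1a1, 48.6% for Enpp1, 44.4% for Runx2, 38.9% for Sp7 and 15.3% for Alpl. The order of the genes was thus nearly that of the whole class, but each gene was detected in a larger share of the 39 cells.

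The whole set at 100 CPM or more occurred in 3 cells of the 354, and their values were looked up after they had been found. A cell of Control plate 3 had 27418 CPM of Spp1 with Alpl at 2728, Runx2 at 2159, Sp7 at 1245, Col1a1 at 7643 and Bglap at 154 CPM. A library from well B12 of Control plate 2, one of the wells that stood apart, had 13443 detected genes and 8 of the 10 genes at 100 CPM or more. The remaining one was a CA-ERBB2 cell of plate 2 without a count of Spp1, with Alpl at 1857, Runx2 at 1418, Sp7 at 858, Col1a1 at 7097 and Bglap at 117 CPM, and with no count of Ank or Enpp1. None of the 3 had a count of Dmp1, while Dmp1 was at 100 CPM or more in 39 of the 72 CA-ERBB2 cells with Spp1.

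**Figure D5:**
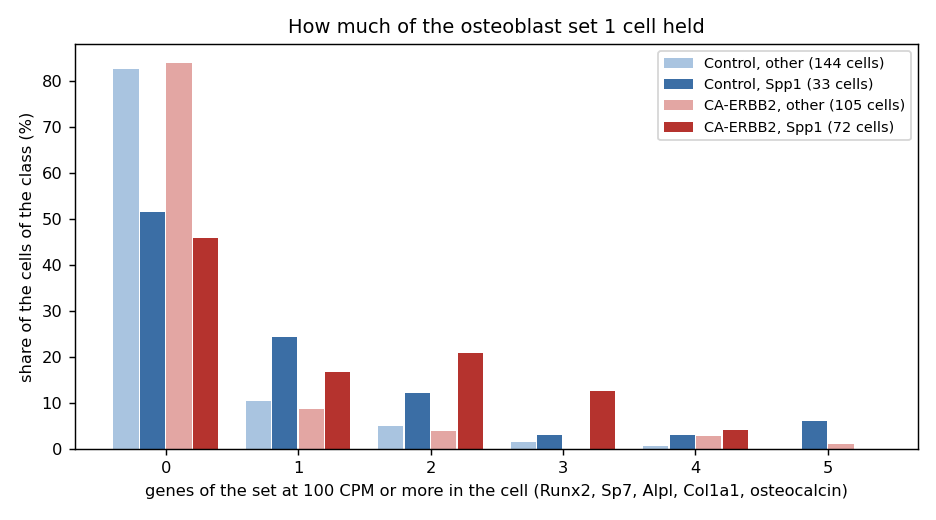
Share of the cells of each class by the number of genes at 100 CPM or more among Runx2, Sp7, Alpl, Col1a1 and osteocalcin. CA-ERBB2 cells with Spp1 reach at most 4 genes, in 3 cells, and all 5 occur in 2 Control cells with Spp1 and in 1 CA-ERBB2 cell without it.

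Control cells with Spp1 had another mixture of the 10 genes, given here side by side. The classes also differed in Spp1 itself, with medians of 639 CPM in Control and 76373 CPM in CA-ERBB2 cells. Between 100 and 1000 CPM of Spp1 lay 22 Control and 14 CA-ERBB2 cells. At 100 CPM or more, Ank was in 3 and 2 of them, Enpp1 in 5 and 1, Alpl in 2 and 1, and Runx2 in 2 and 3. Bglap was in 0 of either at that level. Whether the mixture goes with genotype or with the Spp1 level was not tested. Alpl was at 251 CPM in Control and 69.6 CPM in CA-ERBB2 cells with Spp1, and Runx2 was at 237 and 73.3 CPM. By plate, Runx2 in Control cells with Spp1 was at 81.2, 231 and 555 CPM and Alpl at 46.6, 256 and 652 CPM. A single cell supplied 49.7% of these Alpl counts and 41.8% of these Runx2 counts. Without the cell with most counts, Control cells with Spp1 were at 132 CPM of Alpl and 144 CPM of Runx2, and CA-ERBB2 cells with Spp1 at 34.0 CPM and 62.1 CPM. Sp7 was at 84.6 CPM in the Control class and 86.8 CPM in the CA-ERBB2 class. Ank, Bglap, Bglap2 and Enpp1 were lower in the Control class, at 50.8, 16.1, 5.62 and 45.9 CPM, than in the CA-ERBB2 class. Without wells A12 to D12 the Control class was at 8.60 CPM of Bglap and 0.545 CPM of Bglap2, and the CA-ERBB2 class at 251 and 118 CPM. With all wells, Dmp1 was at 6.33 CPM in the Control class against 2231 CPM.

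Levels of different genes can be set side by side only per length, here as pooled CPM per kilobase of exon in Gencode M21. In CA-ERBB2 cells with Spp1 this gave 1177 for Mgp, 510 for Sparc, 356 for Bglap, 282 for Ank and 220 for Bglap2, and then 25.5 for Sp7, 20.0 for Enpp1, 17.3 for Alpl, 14.9 for Postn and 8.29 for Runx2. Bglap and Ank were thus less than 2-fold below Sparc per kilobase in these cells, whereas in the other CA-ERBB2 cells Bglap was at 1.498 and Ank at 10.9. Reads that fit both Bglap and Bglap2 may be missing from the values of these genes. Spp1 itself was at 81578 in the cells with Spp1, and Dmp1 at 807.

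A list of 51 bone-related genes, which includes the 10, was used to see which roles moved with Spp1. Of its 48 genes that passed the filter, edgeR called 0 between genotypes, with 13 at an unadjusted p under 0.05, and DESeq2 called 8: Ank, Enpp1, Bglap, Bglap2, Slc20a1, Dmp1, Dspp and Dkk1. In CA-ERBB2 cells 17 of the 48 were at least 2-fold higher with Spp1 (6.5% of all genes tested) and 6 were at least 2-fold lower (28.3% of all). In Control cells 18 of the 48 were at least 2-fold higher with Spp1 (12.1% of all), and the median log2 ratio of the list was 0.64 in CA-ERBB2 and 0.61 in Control cells. The list was chosen with earlier results of these cells known and holds Ank, Bglap and Bglap2. Nothing is therefore read from these numbers against the shares of all genes. Phosphate and pyrophosphate genes were higher in 5 of 9, among them the phosphate transporter Slc20a1 (log2 ratio 3.40, 211 against 19.1 CPM) and the nucleoside transporter Slc29a1 (3.47, 975 against 87.1 CPM), and both were higher on all 3 plates. Smpd3, a phospholipase needed for bone mineralization, had a log2 ratio of 0.62 with both signs among plates, the phosphate transporter Slc20a2 one of -1.74, and Enpp6 one of 1.34 at low counts. Phospho1, a phosphatase of matrix vesicles, had a count in 1 of the 72 cells.

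Of the matrix genes, 5 of 16 were at least 2-fold higher, and beside the osteocalcin genes these were Ibsp (bone sialoprotein, log2 ratio 7.54), Dmp1 (6.31, at 2231 against 27.1 CPM) and Col1a1. Ibsp had a count in 18 of the 72 CA-ERBB2 and 9 of the 33 Control cells with Spp1, at a pooled 369 and 307 CPM. A single cell supplied 29.4% and 78.5% of these counts. Col1a1 was higher on all 3 plates (1.76, 684 against 201.3 CPM), but Col1a2, its partner chain, had a ratio of -0.71, Bgn (biglycan) -0.76 and Lum (lumican) 0.65, each with both signs among plates. Osteocyte genes were higher in 3 of 4: Phex, an endopeptidase of phosphate balance, at 304 against 31.3 CPM (3.24), Dkk1, a WNT inhibitor, at 4.10, and Fgf23, a phosphate-regulating hormone, at 2.28, the last in 6 of 72 cells. Pdpn (podoplanin) had a ratio of -0.90, and Sost, the sclerostin gene of mature osteocytes, had no count in any cell. Dmp1 stood at 314, 1386 and 2471 normalized CPM on CA-ERBB2 plates 1 to 3 and at 7.02, 21.5 and 0 on Control plates 1 to 3, with an edgeR adjusted p of 0.774.

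Transcription factors were higher in 4 of 9, among them Sp7, Dlx3 (2.30) and Dlx5 (1.07, lower on plate 1). Atf4 and Twist1 had log2 ratios of -0.59 and -0.51. Genes for vitamin K-dependent carboxylation, the step that completes osteocalcin and matrix Gla protein, were higher in 0 of 3, with Ggcx at -0.01, Vkorc1 at -0.12 and Vkorc1l1 at -1.50. Receptors that osteoblasts use were higher in 0 of 7, with Fgfr2 at -0.75, Bmpr1a at -0.96, Bmpr2 at -0.61, Lrp6 at -1.74 and the parathyroid hormone receptor Pth1r at 0.74.

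Pearson correlations of log2(CPM + 1) over all 354 cells, among 18117 genes detected in at least 20 cells, placed the 10 genes in different company. Points shared plates, depth and genotype, so these values are a description. Ank was nearest to Timp1 (r = 0.590), Spp1 (0.580) and Capg (0.579). Bglap and Bglap2 were nearest to each other (0.849), which their shared sequence bears on, and then to Mmp9 and Il12a (0.610 to 0.659). Alpl was nearest to Omd (0.674), Ptgfr and Lepr, and its correlation with Spp1 was 0.0568. Runx2 was nearest to Dlx5 (0.666), Gdf10 and Acan, and Sp7 had Dlx5 (0.615) and Ptprv (0.612) among its nearest. Sparc was nearest to Serpinh1 (0.673), Cnn3 and H3f3b, Mgp to Fn1 (0.513), Cdh11 and Htra1, Enpp1 to Clint1 (0.489), Vegfa and Pfdn4, and Postn to Gm13372 (0.553), Lama4 and Zeb1. Among the 10 genes, Alpl correlated with Runx2 at 0.579 and with Sp7 at 0.461 but with Ank at 0.0152, while Ank correlated with Bglap at 0.505, with Bglap2 at 0.517 and with Runx2 at 0.188.

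Markers of other cell types moved with the Spp1 classes. In CA-ERBB2 cells with Spp1 the 10 supporting-cell markers summed to a pooled 905 CPM, against 3522 CPM in the others, with 1418, 887 and 744 CPM on plates 1 to 3 against 3409, 3426 and 4040 CPM. The 11 mesenchyme markers summed to a median of 3976 CPM per cell with Spp1 and 1149 CPM without, and to a pooled 5535 and 8079 CPM. The 4 epithelial markers (Epcam, Cdh1, Krt8 and Krt18) summed to 295 CPM with Spp1 and 1400 CPM without, and the 4 chondrocyte markers to 1322 and 4777 CPM. Of the chondrocyte sums, Col2a1 alone made up 1300 and 4703 CPM. Control cells with Spp1 held a pooled 10642.5 CPM of mesenchyme markers and 1876 CPM of supporting-cell markers. The 8 markers of macrophages and osteoclasts summed to 273 CPM in CA-ERBB2 cells with Spp1 and 236 CPM in the others. Ctsk alone made up 180 and 93.6 CPM of these sums. Every other marker of the set but Ocstamp was lower with Spp1, among them Csf1r (33.5 against 49.6 CPM) and C1qa (20.1 against 49.9 CPM). The 8 markers summed to 869 CPM in Control cells with Spp1. Ocstamp, an osteoclast fusion gene, was at 0 in all classes but the CA-ERBB2 cells with Spp1. In that class it had a count in 1 cell (1.39% of the class), at a pooled 0.05 CPM, so nothing is read from it. The pooled level of the 3 erythroid markers was at 164, 16.9 and 379 CPM on CA-ERBB2 plates 1 to 3 and at 6232, 2888 and 4788 CPM on the Control plates, nearly all outside the class with Spp1 in Control. The share of cells with these markers at 100 CPM or more was 9.04% in CA-ERBB2 and 9.60% in Control, and the medians were 0.468 and 0.334 CPM per cell, so the pooled difference lay in a small share of the cells. The part of these other cell types in the values of the 10 genes was not tested.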

How the data were processed

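Single GFP+ cells of P3 cochleae were profiled by SMART-Seq Single PLUS. According to the submitters' processing notes and methods, the authors used bcl2fastq 2.19.1, mapped reads with STAR 2.7.6a to GRCm38 with Gencode M25, and counted them by strand with featureCounts of Subread 2.0.1. Each deposited file lists integer counts of 1 cell by gene, with no normalization, for 354 cells, 177 per genotype.

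No cell was left out. Groups and plate numbers came from the sample titles. The plate served as the replicate and was equated with a FACS experiment, since its cells share their source, and p-values measure the spread between these plates, which may be partly technical. Plate sums of the counts entered edgeR 4.0.16 under R 4.3.3 (TMM, filterByExpr, quasi-likelihood test, Benjamini-Hochberg over 21416 genes; calls at adjusted p under 0.05 and an absolute log2 fold change above 1). TMM factors lay between 0.688 and 1.32. On counts simulated for this comparison, with 21416 genes, the fit called 28 of 100 genes changed 8-fold, 74 of 100 changed 64-fold and 8 unchanged genes. Exact permutation tests (two-sided, scipy 1.17.1) of cell shares took 1 value per plate. Ratios between Spp1 classes are log2 of pooled CPM with 1 CPM added. Intervals are exact binomial (Clopper-Pearson) at 95%, and beside 0 cells stands the share that 3 cells would make. Intervals and limits cover counting error only. Doublets were removed at sorting by scatter, per the methods, and no doublet caller was run. No 2 cells had identical counts.

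The 10 genes, the bone-related list of 51, the markers and the tests were chosen with earlier results of these data known. The text names all 10 genes, the genes of the list in counts and, as fewer than 5 were called, up to 5 of each role with the highest mean level, and for each of the 10 the 3 genes with the highest correlation over cells. Ibsp, Phospho1, Sost and Bglap3, and the cells with the whole set of 5, were added after their values were seen. A gene that these rules name is not reported here. Gene positions and transcripts are from Gencode M21, an earlier release on GRCm38, which names all 10 genes, promoters are from RefSeq, and primers are from the study's designed oligonucleotides. Alternatives were DESeq2 1.42.0, testing every gene with a count, blocking by plate number, keeping only cells of 100000 counts or more with less than 20% mitochondrial counts, leaving out wells A12 to D12 or Spp1, equal weight for each cell in limma 3.58.1, other levels of detection and of Spp1, thinning, and each plate left out. Leaving out the cell with most counts, counting Bglap and Bglap2 as 1 gene, and counting cells with the set of 5 apart from wells A12 to D12, were chosen after seeing the data.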

Additional observations from a re-analysis of the deposited data

How the results depend on the processing

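The number of genes called between genotypes was 1 with edgeR, 285 without a filter on low counts, 235 with DESeq2 and 0 with every cell weighted equally in limma, and 0 to 2 with a plate left out. Without the filter, Ank, Bglap and Bglap2 were called, and with DESeq2 these and Enpp1. The number of the 10 genes whose plates did not overlap went from 3 to 7 over the alternatives, and from 4 to 7 with a plate left out. The shares over all genes were not computed for these settings, so nothing is read from these numbers. With the plate number as a replicate block edgeR again called 1 gene and none of the 10, with a Bglap log2 difference of 4.67. Deviations of plates with the same number correlated at 0.246, 0.0624 and 0.0393, so the numbers were not taken to pair the plates.

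Signs turned for small differences. With equal weight for cells, the log2 differences were 0.54 for Runx2, 0.84 for Sparc and 0.23 for Postn, and with a plate left out Runx2 ranged from -0.35 to 0.38. The share of cells with Sparc, CA-ERBB2 minus Control, was -2.53 points after the filter on cells (-5.20 points at 100 CPM) and -2.75 points after thinning. That of Runx2 at 1000 CPM was -1.13 points, and the share with Alpl differed by -9.89 to 2.82 points with a plate left out. The number of the 10 genes at least 2-fold higher in CA-ERBB2 cells with Spp1 stayed between 5 and 7 under the alternatives run, except that it was 4 of 9 with Bglap and Bglap2 counted as 1 gene, and 102 of 110 class ratios moved by less than 1 SD of the plates. Cells with few counts limit detection, and 3 plates of unequal makeup limit every comparison of genotypes. The cause of these changes was not tested.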
